A study of Homo sapiens with 31 samples.

Results

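The genes described here are 39 cytokines, chemokines and response genes of the transcription factor NF-kB, taken by symbol from a table of 19221 genes. These were measured in 4 groups of cell line libraries (31 in all) from a study of ovarian cancer. The list was fixed by name, not by level, and all 39 symbols were in the table. In 16 of them the highest group mean reached 10 FPKM (sequenced fragments, divided by gene length and by library size). In 11 the highest group mean lay from 1 to 10 FPKM, and in 12 it stayed under 1 FPKM.

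IL1A and IL1B, the genes of the IL-1 receptor agonists IL-1α and IL-1β, had the highest group means of the members in FPKM, and their levels split the libraries into sets that do not follow the cell line names. Both stood above 100 FPKM in every library labelled C13* shCON or A2780 OlaR, and under 0.2 FPKM in every library labelled C13* shCEBPB or A2780. CXCL8, CCL20, CCL28 and IL1RN were likewise higher in the first pair of groups. IL6 and IL32 were highest in C13* shCEBPB, while TNFSF10, LIF, CSF1 and IL11 were highest in A2780. The NF-kB response genes were expressed in all 4 groups, in several different orders.

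As background, NF-kB dimers are held in the cytoplasm by IkB proteins such as IkBα, the product of NFKBIA, and enter the nucleus after IL-1, TNF or Toll-like receptor signals. They then raise cytokine and chemokine genes together with their own inhibitors, of which NFKBIA and TNFAIP3 are the best known. A slower branch, through the kinase NIK and the NFKB2 and RELB proteins, answers to receptors such as LTBR. C/EBPβ, first described as a nuclear factor for IL-6 expression, binds beside NF-kB at many of the same genes, and ovarian cancer cells are known to secrete IL-6 and CXCL8.

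The 4 groups were C13* shCON (n = 7), C13* shCEBPB (n = 8), A2780 OlaR (n = 8) and A2780 (n = 8). C13*, resistant to cisplatin and proficient in homologous recombination, was used by the study as an ovarian cancer line. The study itself stated a reservation about this use, given the origin of the line. Here it carried a lentiviral control shRNA (shCON) or a lentiviral shRNA to CEBPB, the C/EBPβ gene (shCEBPB). A2780 is an ovarian cancer line, here the parent line, and A2780 OlaR is its olaparib-resistant derivative, obtained under rising olaparib, an inhibitor of PARP. The study's methods do not say whether olaparib was present when A2780 OlaR cells were taken for RNA. Each engineered or resistant group is 1 line, and the libraries of a group were described as biological replicates without saying that they came from separate lines or clones, so p-values measure the spread between these libraries. The design implies comparisons of C13* shCEBPB with C13* shCON and of A2780 OlaR with A2780, which share no library.

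CEBPB (chr20:50190830-50192668), the targeted gene, ran over 75.2, 85.4 and 101 FPKM (lowest, median and highest) in C13* shCON and over 30.2, 49.5 and 58.7 FPKM in C13* shCEBPB, and the groups did not overlap (difference -0.87, standard error 0.11, limma adjusted p = 1.42e-06, difference of mean log2(FPKM + 1)). In A2780 OlaR it ran over 97.1, 113 and 127 FPKM and in A2780 over 85.6, 99.7 and 111 FPKM, and these groups overlapped (difference 0.16, standard error 0.06, limma adjusted p = 0.0202). Other features of the libraries stood apart from the labels. Over 12967 genes, the median correlation of log2(FPKM + 1) between a C13* shCON library and an A2780 OlaR library was 0.989, against 0.706 between A2780 OlaR and A2780 and 0.789 between C13* shCON and C13* shCEBPB. KRT5, an epithelial keratin, had a mean of 1530.4 FPKM in C13* shCON and 1813 FPKM in A2780 OlaR, but 0.0134 FPKM in C13* shCEBPB, and was listed at 0 in every A2780 library. VIM, a mesenchymal filament gene, had means of 9.82, 0.160, 342 and 809 FPKM in the same order. KRT19 had means of 1470.2, 1836, 0.0306 and 0.197 FPKM and EPCAM of 111, 116, 0.567 and 1.20 FPKM in C13* shCON, A2780 OlaR, C13* shCEBPB and A2780. Of the other epithelial markers listed, CDH1 had means of 82.9, 99.5, 0.655 and 0.0280 FPKM in that order. KRT8 and KRT18 were instead higher in C13* shCEBPB than in C13* shCON, with means of 459, 483, 882 and 5.90 FPKM and of 319.8, 291, 535 and 81.4 FPKM. The mesenchymal marker CDH2 was lower in C13* shCEBPB, with 17.3, 18.4, 7.56 and 58.5 FPKM, and ZEB1 had 0.507, 0.536, 6.55 and 14.5 FPKM. Of 9 leukocyte markers, 2 in A2780 and 1 in each of the other groups had a mean of at least 1 FPKM, and their summed FPKM ran from 63.1 to 70.7 in C13* shCON, 11.8 to 15.0 in C13* shCEBPB, 38.0 to 46.1 in A2780 OlaR and 79.3 to 104.7 in A2780, where PTPRC, the CD45 gene, had a mean of 85.9 FPKM, while the T cell marker CD3E was listed at 0 throughout. Of 4 ovarian and Müllerian markers the summed FPKM ran from 838 to 968 in C13* shCEBPB, where 1 had a mean of at least 1 FPKM. It ran from 7.66 to 8.80 in C13* shCON, 7.18 to 8.56 in A2780 OlaR and 11.5 to 15.5 in A2780. The sum of 5 fibroblast markers ran from 351 to 407 FPKM in A2780 and reached at most 23.2 FPKM in the other groups. That of 4 endothelial markers was at most 2.39 FPKM in any library. Each of the 31 libraries was most like a library of its own group. One C13* shCON library (replicate 1) has A2780 in the cell line field of its labels. Its median correlation was 0.996 with the other C13* shCON libraries and 0.711 with A2780, and it was kept. Depth, read from the steps of low FPKM, differed by 1.42 times at most between libraries. The members below were compared between groups that also differed in these ways, and the part of such group-wide differences in the member differences was not tested. Whether labels or lines were exchanged between groups was not tested either, and below, group names stand for the libraries that carry those labels.

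To show what the members share in sequence, the 250 bases before the RefSeq start (GRCh38.p14) were searched on both strands for a kappaB-type motif, GGNNNTTCC, and for 2 C/EBP-type motifs, TTGCNNAA and TTGCAA. An entry was found for 30 of the 39 members. The kappaB-type motif was present in 18 of the 30 (60.0%), against 20.2% of 27305 symbols with a window of the same length. TTGCNNAA was present in 5 members (16.7%, against 11% of all), and TTGCAA in 3 members (10.0%, against 5.83%). The letters of TTGCAA and TTGCNNAA overlapped in IL1B. Without an entry were IL15, IL18, LIF, CXCL16, CCL2, CCL5, CSF1, CSF3 and RELB.

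The windows of 4 members are printed 5′ to 3′ on the gene's strand, with motif letters in capitals. They were chosen as the pair of highest level (IL1A and IL1B), the neutrophil chemokine that was split like it (CXCL8) and the cytokine with the opposite order in C13* (IL6). They cover chr2:112784494-112784743 on the minus strand, chr2:112836780-112837029 on the minus strand, chr4:73740319-73740568 on the plus strand and chr7:22726950-22727199 on the plus strand.
IL1A: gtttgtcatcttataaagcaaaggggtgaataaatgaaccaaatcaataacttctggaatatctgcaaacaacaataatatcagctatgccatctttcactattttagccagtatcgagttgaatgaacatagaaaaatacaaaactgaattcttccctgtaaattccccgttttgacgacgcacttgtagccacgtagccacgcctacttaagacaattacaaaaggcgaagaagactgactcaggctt
IL1B: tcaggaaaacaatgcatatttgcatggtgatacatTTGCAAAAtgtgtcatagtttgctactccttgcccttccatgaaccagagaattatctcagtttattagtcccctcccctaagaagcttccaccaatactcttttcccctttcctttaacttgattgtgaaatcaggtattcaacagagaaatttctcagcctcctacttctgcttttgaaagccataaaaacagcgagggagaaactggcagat
CXCL8: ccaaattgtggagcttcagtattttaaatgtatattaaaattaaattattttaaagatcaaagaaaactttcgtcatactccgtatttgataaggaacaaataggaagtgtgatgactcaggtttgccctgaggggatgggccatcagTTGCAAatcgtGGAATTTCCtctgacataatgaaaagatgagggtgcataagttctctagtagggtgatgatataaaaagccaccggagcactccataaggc
IL6: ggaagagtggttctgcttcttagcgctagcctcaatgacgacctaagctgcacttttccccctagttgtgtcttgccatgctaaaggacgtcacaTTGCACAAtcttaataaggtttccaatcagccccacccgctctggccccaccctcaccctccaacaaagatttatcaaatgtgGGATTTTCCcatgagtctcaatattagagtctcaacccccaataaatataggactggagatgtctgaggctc
IL1A had no match to any of the 3 motifs, and IL1B had a C/EBP-type match alone, with its first base 215 bases before the start. CXCL8 had a C/EBP-type match and a kappaB-type match side by side, 102 to 97 and 91 to 83 bases before the start. The IL6 window held a C/EBP-type match at 155 to 148 bases and a kappaB-type match at 72 to 64 bases. The CXCL8 kappaB-type letters, GGAATTTCC, also stood in the windows of CXCL1, CXCL2, CXCL3, CXCL5 and CXCL6. A match is a description of the letters, and genes with such a match lay at 0 FPKM as well as among the highest.

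**Figure D1:**
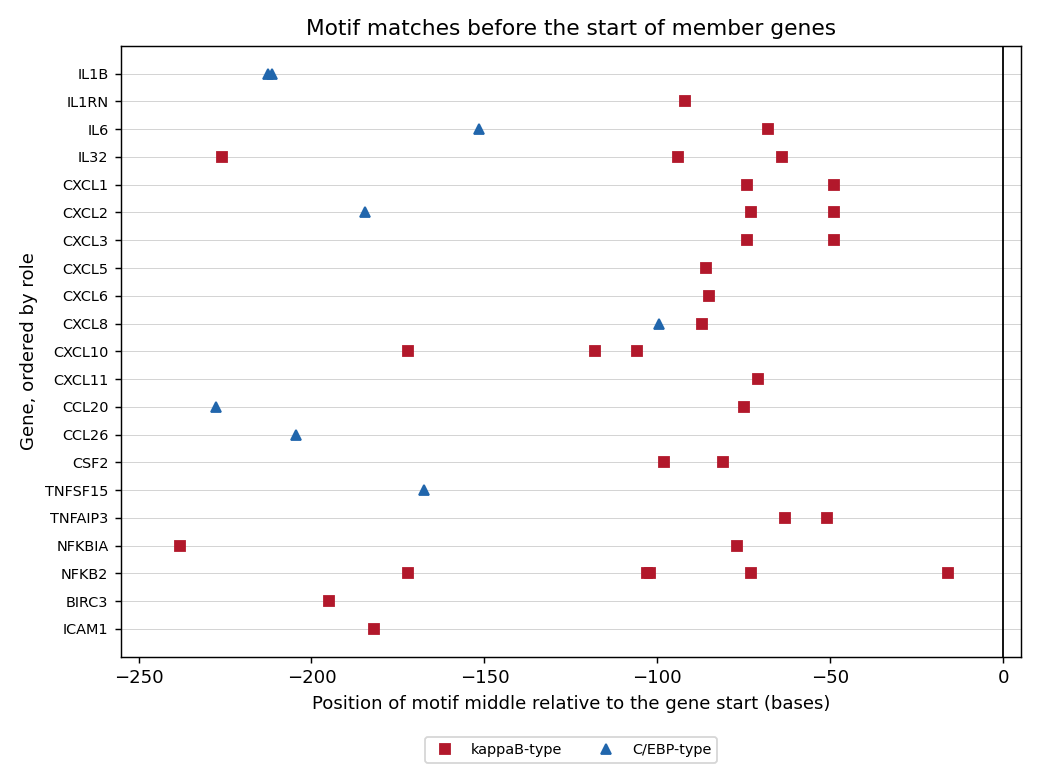
Positions of kappaB-type (squares) and C/EBP-type (triangles) motif matches in the 250 bases before the start of the member genes that hold a match, with the gene start at 0 on the x axis (bases) and 1 gene per line. The kappaB-type matches of the CXC chemokine genes CXCL1 to CXCL8 lie within the last 91 bases.

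Across the members, the summed mean level was 789 FPKM in C13* shCON, 550.2 FPKM in A2780 OlaR, 414 FPKM in C13* shCEBPB and 345 FPKM in A2780. A mean of at least 1 FPKM was reached by 23 members in C13* shCON and in A2780 OlaR, by 16 in C13* shCEBPB and by 15 in A2780. Of the 16 members that reached 10 FPKM somewhere, 7 had their highest mean in A2780, 4 in C13* shCON, 4 in C13* shCEBPB and 1 in A2780 OlaR. CXCL6 and CXCL12 were listed at 0 in all 31 libraries.

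**Figure D2:**
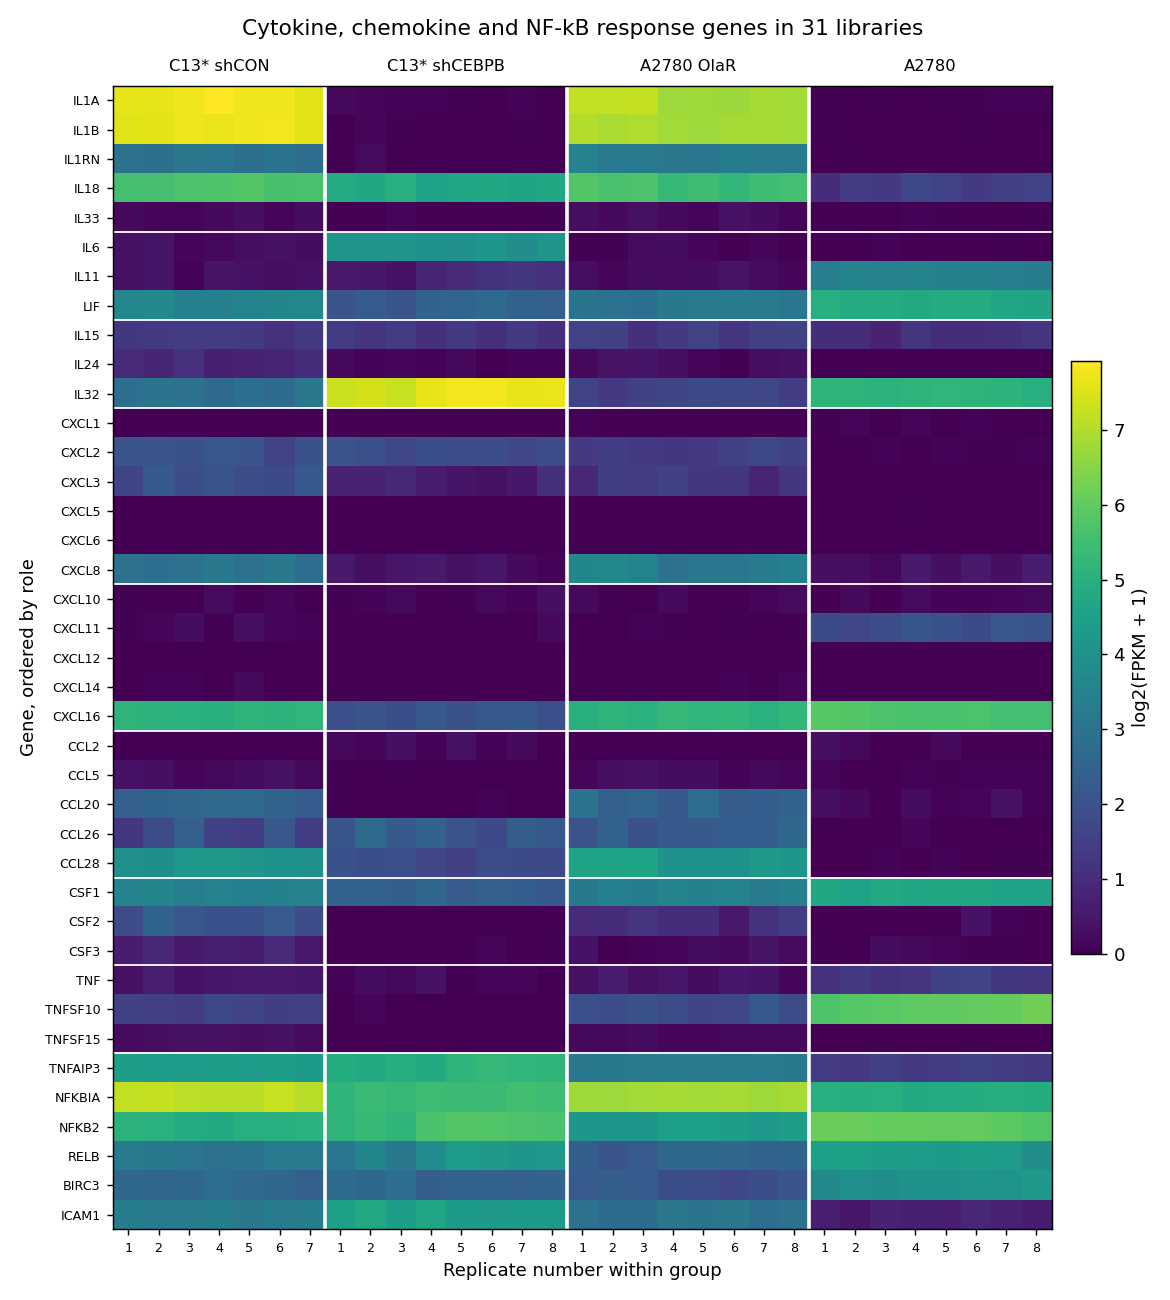
Level of the 39 members (rows, ordered by role, with white lines between roles) in each of the 31 libraries (columns, by group and replicate number), as log2(FPKM + 1) by colour. IL1A, IL1B, CXCL8, CCL20 and CCL28 are bright in C13* shCON and A2780 OlaR, IL32 and IL6 in C13* shCEBPB, and TNFSF10, LIF and IL11 in A2780.

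The IL-1 family members were lower in C13* shCEBPB than in C13* shCON and higher in A2780 OlaR than in A2780, each for 4 of the 4 tested. Of these, IL1A, IL1B and IL1RN were near 0 in C13* shCEBPB and A2780. They entered each test only through the other group, so their direction was fixed by the filter, and the remaining member, IL33, was not tested. A gene was tested where enough libraries to fill the smaller group reached an FPKM of 1, and called where the limma adjusted p (Benjamini-Hochberg over all genes tested) was under 0.05. Any gene under 1 FPKM throughout a group thus entered through the other group alone, with its direction fixed. In C13* this also held for IL6, CXCL8, CCL20, CSF2 and TNFSF10. In A2780 it also held for IL11, CXCL2, CXCL8, CXCL11, CCL20, CCL26, CCL28, TNF and ICAM1. Of all genes tested, 45.7% were called lower in C13* shCEBPB than in C13* shCON and 49.7% lower in A2780 OlaR than in A2780, with 38.9% and 40.1% called higher. Differences are of means of log2(FPKM + 1), which understates the change of low genes.

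IL1A (chr2:112773925-112784493) ran over 189, 212 and 241 FPKM in C13* shCON and over 0, 0.0566 and 0.149 FPKM in C13* shCEBPB (difference -7.63, standard error 0.05, limma adjusted p = 8.63e-25). In A2780 OlaR it ran over 106, 114 and 147 FPKM and in A2780 over 0, 0.0324 and 0.0571 FPKM (difference 6.91, standard error 0.07, limma adjusted p = 2.38e-24). No library of C13* shCEBPB or A2780 came near the others, and in bulk RNA fewer expressing cells and less RNA per cell cannot be told apart. IL1B (chr2:112829751-112836816) ran over 183, 205 and 221 FPKM in C13* shCON, with 5 of the 8 C13* shCEBPB libraries listed at 0 and the highest at 0.0757 FPKM (difference -7.63, standard error 0.05, limma adjusted p = 2.46e-25). It ran over 108, 114 and 126 FPKM in A2780 OlaR and reached at most 0.0394 FPKM in A2780 (difference 6.85, standard error 0.04, limma adjusted p = 9.11e-29). The pair, neighbours on chromosome 2, thus had the same order of levels, with C13* shCON above A2780 OlaR without overlap and the other two groups overlapping near 0.

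IL1RN (chr2:113099315-113134016), which encodes the antagonist of the same receptor, ran over 7.64, 8.73 and 10.4 FPKM in A2780 OlaR and 6.32, 6.67 and 7.90 FPKM in C13* shCON. These groups overlapped, and 7 of 8 libraries were listed at 0 in both C13* shCEBPB (difference -2.97, standard error 0.05, limma adjusted p = 3.43e-19) and A2780 (difference 3.27, standard error 0.05, limma adjusted p = 2.18e-22). IL18, an IL-1 family cytokine that drives interferon γ production, kept a higher level in C13* shCEBPB, where it ran over 22.8, 25.9 and 30.96 FPKM against 46.4, 49.4 and 55.1 FPKM in C13* shCON (difference -0.92, standard error 0.06, limma adjusted p = 8.20e-11). In A2780 it ran over 1.02, 1.72 and 2.26 FPKM, far under the 36.9, 44.6 and 54.6 FPKM of A2780 OlaR (difference 4.09, standard error 0.09, limma adjusted p = 5.72e-19). IL33, an alarmin of the family, had a highest library of 0.320 FPKM and entered no test.

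**Figure D3:**
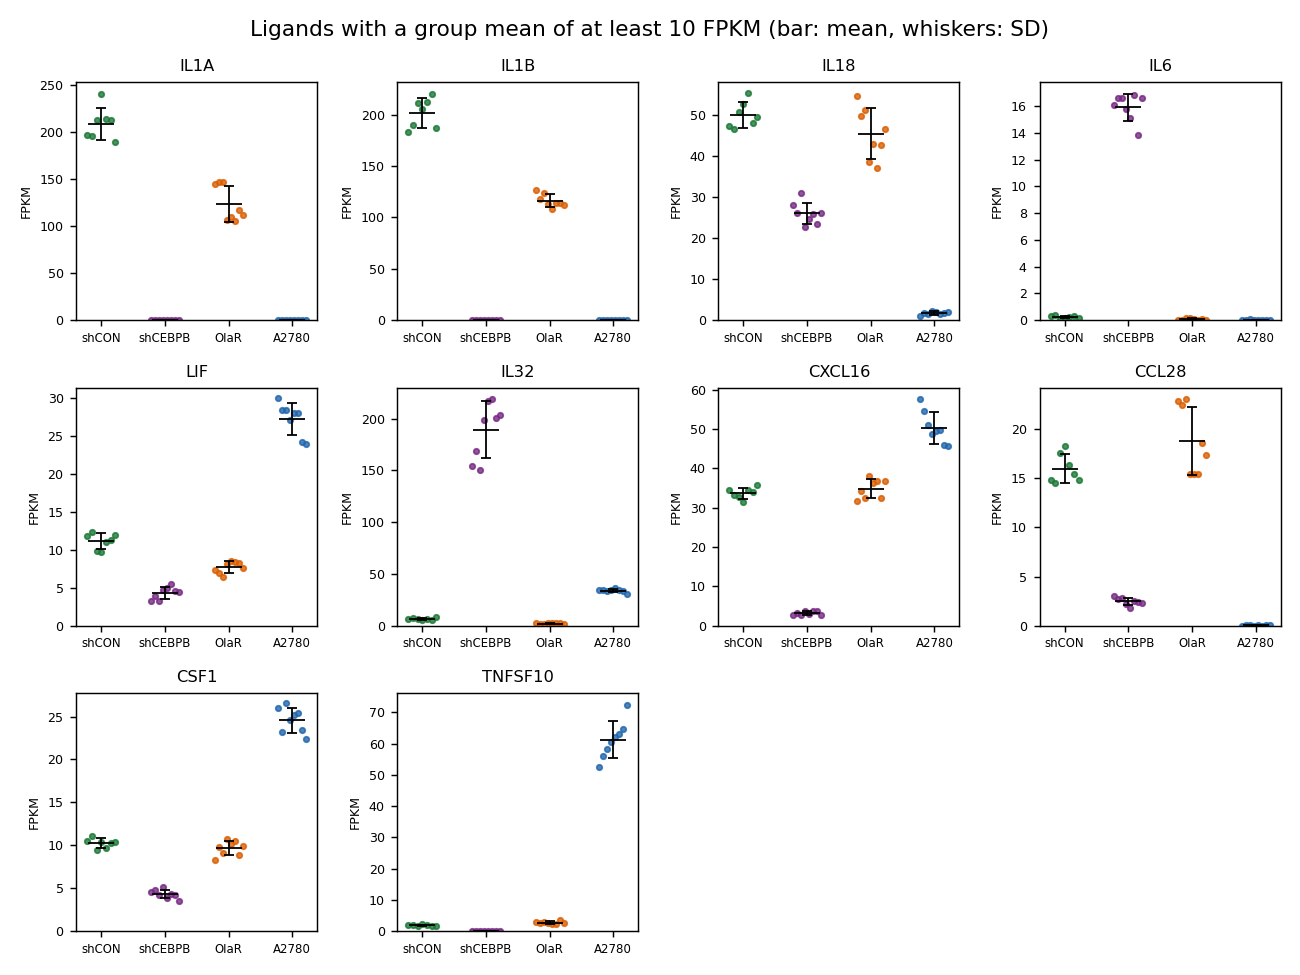
FPKM in each library (points) of the 10 secreted or membrane ligands with a group mean of at least 10 FPKM, by group, with the mean (bar) and SD (whiskers) on linear axes that start at 0. IL1A and IL1B are near 0 in C13* shCEBPB and A2780, IL6 and IL32 stand highest in C13* shCEBPB, and LIF, CXCL16, CSF1 and TNFSF10 stand highest in A2780.

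Each IL-6 family member, whose receptors share the gp130 subunit, had its own order of groups. IL6 (chr7:22725884-22732002) ran over 13.8, 16.3 and 16.8 FPKM in C13* shCEBPB and over 0.0973, 0.221 and 0.374 FPKM in C13* shCON (difference 3.79, standard error 0.06, limma adjusted p = 1.94e-20), and no library of one group came near the other. IL6 entered this test through C13* shCEBPB alone, so its direction was fixed by the filter. In A2780 OlaR and A2780 the highest library was at 0.194 and 0.0497 FPKM, and IL6 was not tested there. Annotated opposite-strand genes share 428 exonic bases with IL6, and whether the counting used strand is not stated. In C13*, then, IL6 was high in the libraries in which IL1A and IL1B were near 0.

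LIF, which keeps stem cells undifferentiated and acts through gp130, ran over 23.9, 28.02 and 30.0 FPKM in A2780, 9.73, 11.3 and 12.3 FPKM in C13* shCON, 6.44, 7.86 and 8.53 FPKM in A2780 OlaR and 3.22, 4.47 and 5.54 FPKM in C13* shCEBPB. No neighbours in that order overlapped, and LIF was called lower in both comparisons (C13* shCEBPB, difference -1.20, standard error 0.09, limma adjusted p = 5.88e-10; A2780 OlaR, difference -1.70, standard error 0.06, limma adjusted p = 4.41e-16). IL11, a gp130 cytokine linked to fibrosis, ran over 9.28, 9.96 and 10.8 FPKM in A2780 and 0.0894, 0.186 and 0.333 FPKM in A2780 OlaR (difference -3.21, standard error 0.05, limma adjusted p = 2.83e-22). Its highest C13* library was at 1.4 FPKM, in C13* shCEBPB, and it was not tested in C13*.

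IL32, a proinflammatory cytokine that also acts inside the cell, had the largest rise of the members tested in C13* shCEBPB, on the log2(FPKM + 1) scale. It ran over 150.2, 199.9 and 219 FPKM there and over 5.62, 6.38 and 7.91 FPKM in C13* shCON (difference 4.64, standard error 0.09, limma adjusted p = 1.22e-18). In A2780 it ran over 30.3, 34.2 and 36.1 FPKM and in A2780 OlaR over 1.502, 2.14 and 2.39 FPKM (difference -3.52, standard error 0.06, limma adjusted p = 2.36e-21). All 4 groups were apart, and A2780 OlaR was lowest. IL15, which supports T cells and natural killer cells, had means of 1.502, 1.36, 1.71 and 1.07 FPKM in C13* shCON, C13* shCEBPB, A2780 OlaR and A2780, all neighbours overlapped, and the difference in C13* was not called (difference -0.09, standard error 0.06, limma adjusted p = 0.202). Between A2780 OlaR and A2780 it was called (difference 0.38, standard error 0.08, limma adjusted p = 1.10e-04), although these groups overlapped. Under quantile normalization the IL15 difference in C13* was 0.20 (limma adjusted p = 0.00802), in the other direction. IL24 stayed under 1 FPKM in each group mean, at 0.870 FPKM in C13* shCON and 0.219 FPKM in A2780 OlaR.

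Among the CXC chemokines that attract neutrophils through CXCR1 and CXCR2, CXCL8 (interleukin 8, chr4:73740519-73743716) had the highest FPKM. CXCL8 ran over 6.12, 6.84 and 8.04 FPKM in C13* shCON and over 0.0601, 0.333 and 0.494 FPKM in C13* shCEBPB (difference -2.62, standard error 0.08, limma adjusted p = 4.41e-16). In A2780 OlaR it ran over 6.91, 9.29 and 11.6 FPKM, and in A2780 over 0.128, 0.254 and 0.524 FPKM (difference 2.95, standard error 0.10, limma adjusted p = 1.99e-16). Levels in C13* shCON and A2780 OlaR overlapped, as did the low levels of the other two groups.

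CXCL2 had means of 2.98 ± 0.429 FPKM (SD, n = 7) in C13* shCON and 2.61 ± 0.281 FPKM (SD, n = 8) in C13* shCEBPB, and their difference was not called (difference -0.13, standard error 0.07, limma adjusted p = 0.0863). In A2780 OlaR its mean was 1.73 ± 0.289 FPKM (SD, n = 8), and in A2780 0.0251 FPKM (difference 1.41, standard error 0.05, limma adjusted p = 2.12e-15). CXCL3, its close paralog, had means of 2.91 ± 0.588 FPKM (SD, n = 7) in C13* shCON and 0.614 ± 0.270 FPKM (SD, n = 8) in C13* shCEBPB (difference -1.28, standard error 0.11, limma adjusted p = 3.15e-09), 1.39 ± 0.407 FPKM (SD, n = 8) in A2780 OlaR, and was listed at 0 in all A2780 libraries. CXCL8 and CXCL3 were thus called lower in C13* shCEBPB and CXCL2 was not. CXCL1, CXCL2 and CXCL3 are near-identical paralogs between which the counting could split reads, so their single values are uncertain. CXCL1 was above 0 in 1 A2780 OlaR and 4 A2780 libraries only, with a highest value of 0.101 FPKM, CXCL5 in 1 library, and CXCL6 in none.

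Of the other CXC chemokines, CXCL16, a membrane-bound ligand of CXCR6, had the highest level. It ran over 31.3, 33.9 and 35.9 FPKM in C13* shCON and 2.71, 3.08 and 3.77 FPKM in C13* shCEBPB (difference -3.05, standard error 0.06, limma adjusted p = 2.71e-18). In A2780 OlaR it ran over 31.8, 35.3 and 38.0 FPKM, which overlapped C13* shCON, and in A2780 over 45.7, 49.6 and 57.7 FPKM (difference -0.52, standard error 0.05, limma adjusted p = 1.19e-08). C13* shCEBPB was thus the low group for CXCL16. CXCL11, an interferon-induced ligand of CXCR3, was found mainly in A2780, over 2.22, 2.82 and 3.46 FPKM, against 0, 0.0221 and 0.0621 FPKM in A2780 OlaR (difference -1.90, standard error 0.06, limma adjusted p = 1.52e-16). CXCL10, which acts on the same receptor, had a highest library of 0.253 FPKM, and CXCL14 of 0.156 FPKM.

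The CC chemokines CCL20 and CCL28, which guide lymphocytes to mucosal surfaces, were split like IL1A. CCL20, the ligand of CCR6, ran over 3.94, 4.87 and 5.66 FPKM in C13* shCON and 3.71, 4.57 and 7.07 FPKM in A2780 OlaR, which overlapped. Its highest library was at 0.0569 FPKM in C13* shCEBPB (difference -2.53, standard error 0.06, limma adjusted p = 6.75e-18) and 0.287 FPKM in A2780 (difference 2.36, standard error 0.09, limma adjusted p = 6.03e-15). CCL28, a ligand of CCR10, ran over 14.5, 15.4 and 18.3 FPKM in C13* shCON, 15.4, 18.0 and 23.0 FPKM in A2780 OlaR, 1.84, 2.47 and 3.01 FPKM in C13* shCEBPB (difference -2.28, standard error 0.07, limma adjusted p = 1.60e-15) and 0, 0.0219 and 0.0514 FPKM in A2780 (difference 4.26, standard error 0.08, limma adjusted p = 3.96e-20). The first pair overlapped, and C13* shCEBPB lay apart from both that pair and A2780.

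CCL26 (eotaxin-3, a ligand of CCR3) went the other way in C13*, with means of 2.44 ± 1.12 FPKM (SD, n = 7) in C13* shCON and 3.81 ± 1.02 FPKM (SD, n = 8) in C13* shCEBPB, groups that overlapped (difference 0.52, standard error 0.17, limma adjusted p = 0.00969). Within library numbers 1 to 3 the CCL26 difference in C13* was not called (limma adjusted p = 0.0950). CCL26 had a mean of 3.93 ± 0.782 FPKM (SD, n = 8) in A2780 OlaR and was listed at 0 in 7 of 8 A2780 libraries (difference 2.27, standard error 0.08, limma adjusted p = 3.43e-16). CCL2 and CCL5, which attract monocytes and T cells, stayed under 1 FPKM in every library, with highest values of 0.275 and 0.303 FPKM.

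Each colony-stimulating factor, a growth signal of myeloid cells, was lower in C13* shCEBPB than in C13* shCON where tested. CSF1, the macrophage factor, ran over 9.41, 10.3 and 11.1 FPKM in C13* shCON and 3.50, 4.29 and 5.11 FPKM in C13* shCEBPB (difference -1.08, standard error 0.06, limma adjusted p = 8.34e-12). In A2780 it ran over 22.4, 24.9 and 26.6 FPKM, above the 8.30, 9.85 and 10.8 FPKM of A2780 OlaR (difference -1.26, standard error 0.05, limma adjusted p = 5.75e-15). CSF2 (GM-CSF) ran over 2.55, 2.996 and 4.81 FPKM in C13* shCON and was listed at 0 in all 8 C13* shCEBPB libraries, so no fold is given. CSF2 thus entered the test through C13* shCON alone. It had a mean of 1.09 ± 0.355 FPKM (SD, n = 8) in A2780 OlaR, and 6 of 8 A2780 libraries were listed at 0. CSF3 (G-CSF) had a mean of 0.630 FPKM in C13* shCON and under 0.2 FPKM in the other groups.

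TNFSF10 (TRAIL), a ligand of death receptors, was highest in A2780, where it ran over 52.7, 61.3 and 72.4 FPKM, against 2.13, 2.62 and 3.53 FPKM in A2780 OlaR (difference -4.09, standard error 0.07, limma adjusted p = 8.53e-21). In C13* shCON it ran over 1.63, 1.83 and 2.27 FPKM, and 7 of 8 C13* shCEBPB libraries were listed at 0 (difference -1.52, standard error 0.04, limma adjusted p = 5.97e-16). TNF itself was low, at 1.51 ± 0.347 FPKM (SD, n = 8) in A2780 and 0.317 ± 0.127 FPKM (SD, n = 8) in A2780 OlaR (difference -0.92, standard error 0.08, limma adjusted p = 9.78e-10), and at 0.416 FPKM in C13* shCON and 0.108 FPKM in C13* shCEBPB, where it was not tested. TNFSF15, a ligand of TNFRSF25, had a highest library of 0.291 FPKM.

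All 6 NF-kB response genes were tested in both comparisons. In C13*, 4 were called higher and 1 lower in C13* shCEBPB, and in A2780, 3 were called higher and 3 lower in A2780 OlaR. Of all genes tested, 38.9% were higher and 45.7% lower in C13* shCEBPB, and 40.1% were higher and 49.7% lower in A2780 OlaR. The feedback inhibitors NFKBIA and TNFAIP3 did not go together. NFKBIA (IkBα) ran over 135, 138 and 152 FPKM in C13* shCON, 108, 111 and 117 FPKM in A2780 OlaR, 35.2, 41.2 and 45.1 FPKM in C13* shCEBPB (difference -1.77, standard error 0.05, limma adjusted p = 3.06e-16) and 27.8, 29.2 and 30.7 FPKM in A2780 (difference 1.91, standard error 0.03, limma adjusted p = 1.54e-21). TNFAIP3 (A20), which trims ubiquitin chains from signalling proteins, ran over 27.8, 32.2 and 37.4 FPKM in C13* shCEBPB, 19.0, 19.97 and 20.5 FPKM in C13* shCON (difference 0.66, standard error 0.07, limma adjusted p = 3.96e-08), 7.97, 8.35 and 8.86 FPKM in A2780 OlaR and 1.47, 1.61 and 1.94 FPKM in A2780 (difference 1.83, standard error 0.04, limma adjusted p = 3.96e-19). For both genes no neighbours in the order overlapped. C13* shCON had the highest NFKBIA level and C13* shCEBPB the highest TNFAIP3 level.

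NFKB2 and RELB, the subunits of the slower NF-kB branch, had the same order, with A2780 highest and A2780 OlaR lowest. NFKB2 ran over 53.9, 64.1 and 69.9 FPKM in A2780 and 17.1, 18.9 and 21.2 FPKM in A2780 OlaR (difference -1.69, standard error 0.06, limma adjusted p = 5.61e-16). In C13* it ran over 34.4, 48.7 and 54.3 FPKM in C13* shCEBPB and 27.9, 30.2 and 32.9 FPKM in C13* shCON (difference 0.54, standard error 0.10, limma adjusted p = 5.31e-05). The ranges in A2780 and C13* shCEBPB overlapped, and the others lay apart. RELB ran over 14.1, 19.96 and 21.9 FPKM in A2780 and 3.28, 4.80 and 5.30 FPKM in A2780 OlaR (difference -1.87, standard error 0.09, limma adjusted p = 8.97e-14), and over 7.70, 15.4 and 19.2 FPKM in C13* shCEBPB and 6.95, 8.26 and 8.82 FPKM in C13* shCON, which overlapped (difference 0.69, standard error 0.17, limma adjusted p = 0.00120). The C13* shCEBPB libraries numbered 1 to 3 had a mean RELB level of 9.08 FPKM and those numbered 4 to 8 of 17.3 FPKM, with 36.1 and 51.2 FPKM for NFKB2 and 37.8 and 52.8 FPKM for CEBPB. In library numbers 1 to 3 the RELB difference in C13* was 0.11 (limma adjusted p = 0.439), and in numbers 4 to 8 it was 1.04 (limma adjusted p = 1.25e-07). For NFKB2 the differences were 0.20 (limma adjusted p = 0.0278) and 0.75 (limma adjusted p = 1.04e-08). The labels give no meaning to these numbers.

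BIRC3 (cIAP2), a ubiquitin ligase that limits cell death, ran over 12.8, 15.5 and 18.3 FPKM in A2780 and 2.22, 3.003 and 4.32 FPKM in A2780 OlaR (difference -1.98, standard error 0.09, limma adjusted p = 1.08e-13). In C13* it overlapped, with 4.41, 5.27 and 6.29 FPKM in C13* shCON and 4.30, 4.74 and 6.22 FPKM in C13* shCEBPB, and was not called (difference -0.07, standard error 0.07, limma adjusted p = 0.399). Within library numbers 1 to 3 the BIRC3 difference in C13* was 0.12 (limma adjusted p = 0.118). Within numbers 4 to 8 it was -0.19 and was called (limma adjusted p = 0.0419). ICAM1, the adhesion molecule for leukocyte integrins, ran over 18.5, 19.7 and 26.4 FPKM in C13* shCEBPB and 7.85, 8.60 and 9.12 FPKM in C13* shCON (difference 1.18, standard error 0.07, limma adjusted p = 2.67e-11). In A2780 OlaR it ran over 5.94, 6.83 and 8.004 FPKM, which overlapped C13* shCON, and in A2780 it stayed under 1 FPKM, over 0.408, 0.606 and 0.827 FPKM (difference 2.27, standard error 0.06, limma adjusted p = 9.96e-18). Annotated opposite-strand genes share 876 exonic bases with ICAM1. A2780 thus had the highest NFKB2, RELB and BIRC3 levels and the lowest TNFAIP3, NFKBIA and ICAM1 levels of the 4 groups.

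**Figure D4:**
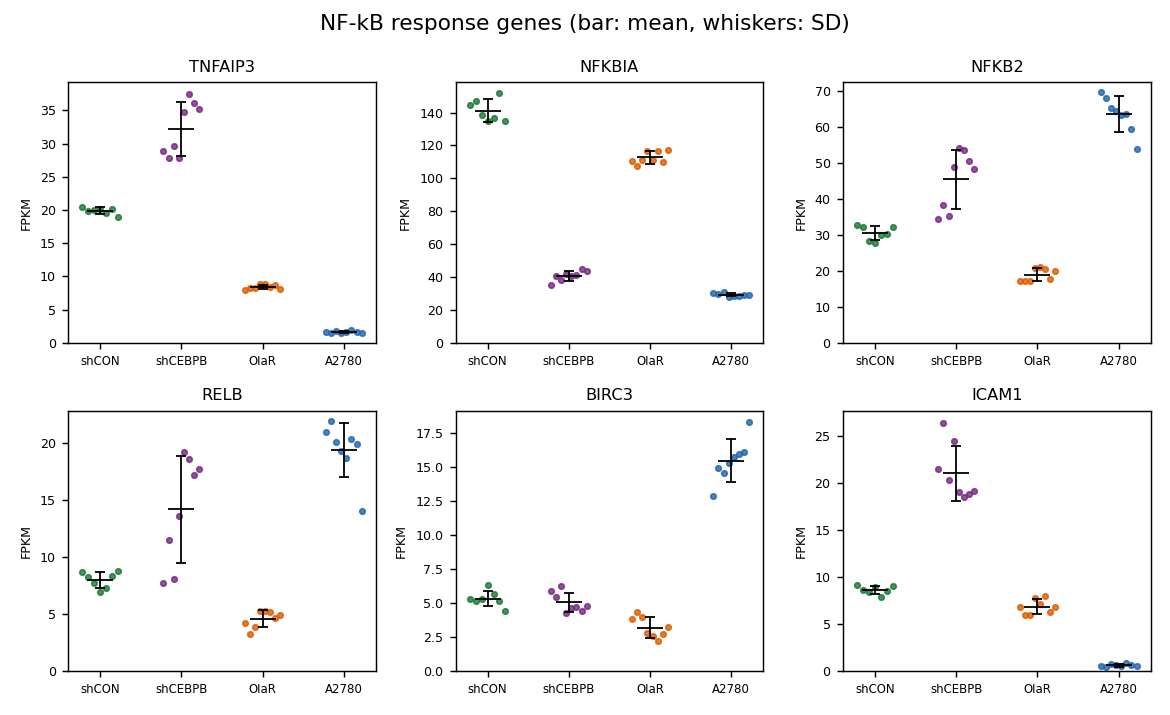
FPKM of the 6 NF-kB response genes in each library (points), by group, with the mean (bar) and SD (whiskers) on linear axes that start at 0. TNFAIP3 and ICAM1 are highest in C13* shCEBPB, NFKBIA in C13* shCON, and NFKB2, RELB and BIRC3 in A2780, and the spread of RELB is widest in C13* shCEBPB, from 7.70 to 19.2 FPKM.

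Of the 39 members, 24 passed the filter on low values in the C13* comparison and 21 of them were called, 7 higher and 14 lower in C13* shCEBPB, against 84.7% of all 12006 genes tested. Their median difference was -1.14, against -0.07 over all genes tested, and 19 did not overlap between the groups, against 66.0% of all. The share called among the 24 tested was 87.5%, close to the share over all genes. A fold of at least 2 on the log2(FPKM + 1) scale was also reached by 16, against 29.5% of all genes. Members that were at or near 0 in one group entered the test through the other, where they are high, so these counts describe the members tested and not all 39. Without the filter, 30 of 35 members were called, against 73.5% of all genes, and their median difference was -0.31, against -0.02 over all genes. CSF2, listed at 0 in C13* shCEBPB, is counted among the lower members. The 15 members not tested were IL11, IL24, IL33, CXCL1, CXCL5, CXCL6, CXCL10, CXCL11, CXCL12, CXCL14, CCL2, CCL5, CSF3, TNF and TNFSF15.

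In the A2780 comparison 24 members also passed the filter, and all 24 were called, 13 higher and 11 lower in A2780 OlaR, where 89.8% of 12458 genes were called. The median difference was 0.90, against -0.12 over all genes tested. Here too, members near 0 in one group entered through the other. Without the filter, 31 of 37 members were called, 20 higher and 11 lower, against 77.7% of all genes, and the median difference was 0.16, against -0.02 over all genes. Of the 24, 23 did not overlap (74.1% of all genes) and 21 reached a fold of at least 2 (35.7% of all). IL6, CXCL3 and CSF2 were not tested here and were tested in C13*, while IL11, CXCL11 and TNF were tested here and not in C13*. In a two-sided exact permutation test over libraries, 18 of the 24 members tested in C13* and 23 of the 24 tested in A2780 gave p = 0.000155, the smallest it allows. This test was not run over all genes, of which 66.0% in C13* and 74.1% in A2780 did not overlap between the groups. For members near 0 throughout a group, the filter had largely fixed this outcome.

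**Figure D5:**
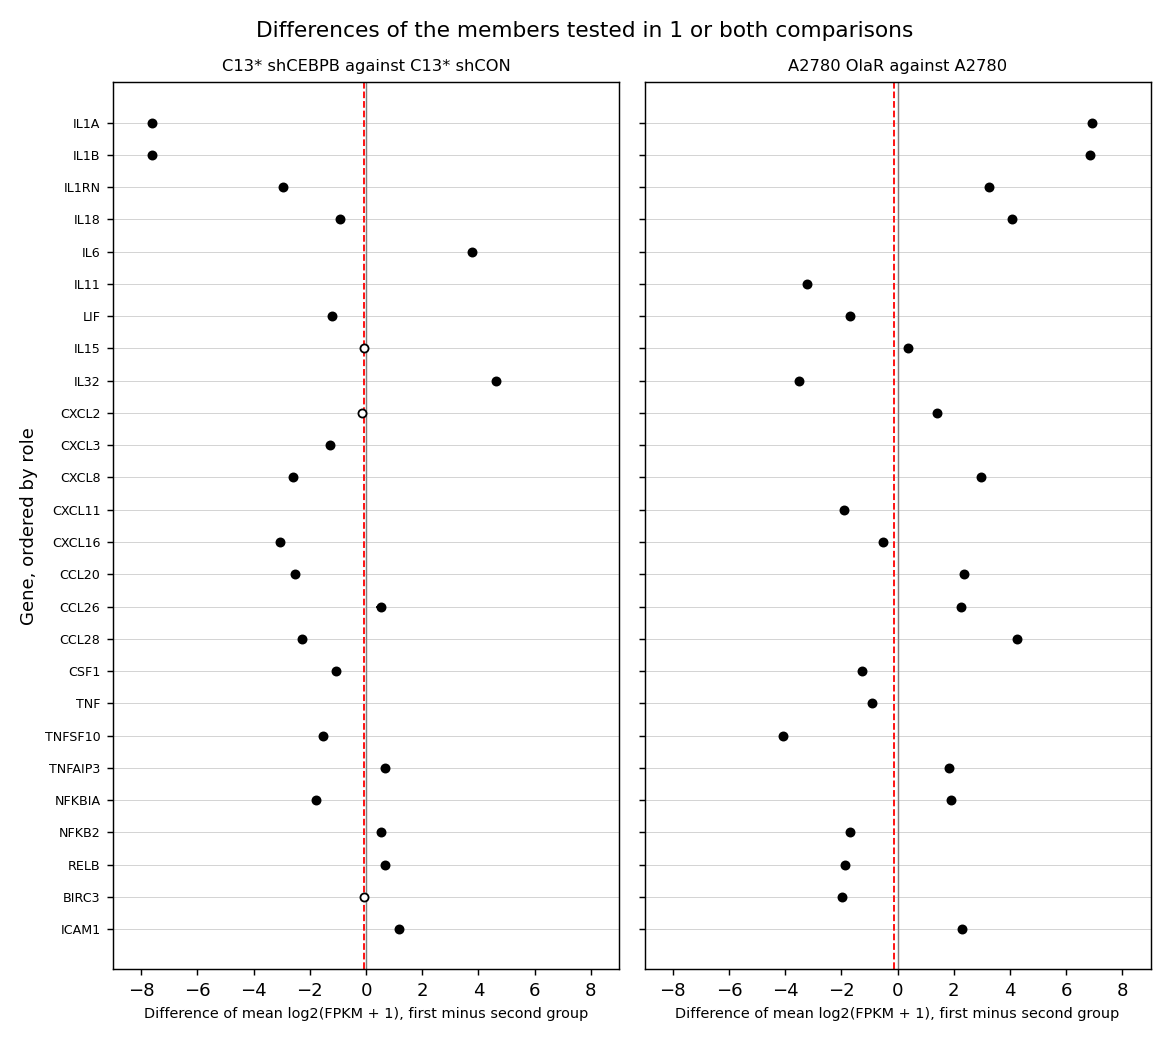
Difference of mean log2(FPKM + 1) for the members tested, C13* shCEBPB minus C13* shCON (left) and A2780 OlaR minus A2780 (right), with whiskers of 1 standard error, mostly smaller than the points. Filled points were called (limma adjusted p under 0.05), the open points IL15, CXCL2 and BIRC3 were not, the dashed line is the median of all genes tested, and CSF2 is left out since it was listed at 0 in C13* shCEBPB.

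Set side by side, 21 members were tested in both comparisons and 18 were called in both. Of these, 11 went in opposite directions (IL1A, IL1B, IL1RN, IL18, IL32, CXCL8, CCL20, CCL28, NFKBIA, NFKB2 and RELB) and 7 in the same direction (LIF, CXCL16, CCL26, CSF1, TNFSF10, TNFAIP3 and ICAM1). That is 61.1% opposite, against 65.0% of the 8779 genes called in both over the whole table, so the members were not set apart by this share. IL1A, IL1B, IL1RN, CXCL8 and CCL20 stayed under 1 FPKM in every C13* shCEBPB and A2780 library. Their opposite directions were thus fixed by the filter. The direction of TNFSF10 in C13*, and of CCL26, CCL28 and ICAM1 in A2780, was fixed in the same way. LIF, CXCL16, CSF1 and TNFSF10 were lower in both C13* shCEBPB and A2780 OlaR than in the group each was compared with, and CCL26, TNFAIP3 and ICAM1 were higher in both.

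To order the levels across the lines, A2780 OlaR was set against C13* shCON and C13* shCEBPB against A2780. The study did not make these comparisons, and each shares its libraries with those above. Between A2780 OlaR and C13* shCON, 42.2% of 11547 genes were called, and 17 of 23 members tested, 4 higher and 13 lower in A2780 OlaR, against 19.3% and 22.9% of all genes. All 6 NF-kB response genes were lower in A2780 OlaR, from TNFAIP3 (difference -1.15, standard error 0.03, limma adjusted p = 3.06e-14) to ICAM1 (difference -0.30, standard error 0.06, limma adjusted p = 5.16e-04). IL1A (difference -0.76, standard error 0.08, limma adjusted p = 1.05e-06) and IL1B (difference -0.79, standard error 0.05, limma adjusted p = 4.94e-10) were also lower there, as was CSF2 (difference -1.05, standard error 0.12, limma adjusted p = 1.54e-06). IL1RN (difference 0.28, standard error 0.06, limma adjusted p = 0.00121), CXCL8 (difference 0.35, standard error 0.10, limma adjusted p = 0.00776), CCL26 (difference 0.57, standard error 0.16, limma adjusted p = 0.00739) and TNFSF10 (difference 0.33, standard error 0.07, limma adjusted p = 0.00125) were higher. The CXCL8 difference was not called in library numbers 4 to 8 (difference 0.15, limma adjusted p = 0.183) or with the replicate number as a block (limma adjusted p = 0.0562), and that of CCL26 not in numbers 1 to 3 (difference 0.33, limma adjusted p = 0.303). IL15, IL18, CXCL16, CCL20, CCL28 and CSF1 were not called, with differences from -0.15 (IL18) to 0.21 (CCL28). Of these, CCL28 was called under quantile normalization (limma adjusted p = 0.0464), in 1 fit of all 4 groups (limma adjusted p = 0.0374) and in library numbers 1 to 3 (difference 0.52, limma adjusted p = 2.09e-04), and IL18 in numbers 4 to 8 (difference -0.30, limma adjusted p = 0.00165). A fold of at least 2 was reached by 3 members, IL32 (difference -1.32, standard error 0.07, limma adjusted p = 2.27e-10), CSF2 and TNFAIP3, and by 0.589% of all genes.

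Between C13* shCEBPB and A2780, the groups with little IL1A and IL1B, all 20 members tested were called, 10 in each direction, where 88.9% of 12234 genes were called, 37.4% higher and 51.5% lower in C13* shCEBPB. The median difference of the members was -0.15, against -0.18 over all genes tested, and under quantile normalization they were 0.37 and -0.04. The largest member differences were those of TNFSF10 (difference -5.94, standard error 0.05, limma adjusted p = 9.08e-25) and IL6 (difference 4.07, standard error 0.04, limma adjusted p = 3.30e-24), followed by ICAM1 (difference 3.76, standard error 0.07, limma adjusted p = 1.04e-19) and TNFAIP3 (difference 3.64, standard error 0.07, limma adjusted p = 5.06e-20). TNFSF10 was lower and the other 3 were higher in C13* shCEBPB. TNFSF10 stayed under 1 FPKM throughout C13* shCEBPB, and IL6 and ICAM1 throughout A2780, so the filter fixed the direction of these genes. Low IL-1 levels thus went with different sets of other members in these groups.

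The receptors of these ligands were counted from a list of 41 genes, with counts in the words used above. In C13*, 26 were tested and 20 called, 6 higher and 14 lower in C13* shCEBPB, with a median difference of -0.33. That is 76.9% of those tested, against 84.7% of all genes, whose median difference was -0.07. ACKR3, a scavenging receptor for CXCL12 and CXCL11, had a mean of 0.259 FPKM in C13* shCON and 21.7 FPKM in C13* shCEBPB (difference 4.18, standard error 0.06, limma adjusted p = 2.57e-20). TNFRSF25, the TNFSF15 receptor, had 11.8 and 1.18 FPKM (difference -2.55, standard error 0.05, limma adjusted p = 3.49e-19). In A2780 all 22 receptors tested were called, of which A2780 OlaR had 12 higher and 10 lower, and the median difference was 0.27, against 89.8% of all genes called and a median of -0.12. CCR10, a receptor of CCL28, had a mean of 45.7 FPKM in A2780 and 1.23 FPKM in A2780 OlaR (difference -4.40, standard error 0.08, limma adjusted p = 1.53e-20), the reverse of its ligand. TNFRSF10A, a death receptor for TNFSF10, was listed at 0 in 7 of 8 A2780 libraries and had a mean of 15.5 FPKM in A2780 OlaR (difference 4.03, standard error 0.06, limma adjusted p = 9.07e-22). The other TNFSF10 receptors were lower in A2780 OlaR, as TNFSF10 was, with means in A2780 and A2780 OlaR of 93.6 and 40.5 FPKM for TNFRSF10B, 2.75 and 1.49 FPKM for TNFRSF10C and 8.92 and 0.00888 FPKM for TNFRSF10D, and each was called. In C13*, TNFRSF10A was lower in C13* shCEBPB (difference -0.86, standard error 0.08, limma adjusted p = 1.47e-08), as its ligand was. TNFRSF10B was lower too (difference -0.63, limma adjusted p = 1.40e-10), and TNFRSF10C was not called (limma adjusted p = 0.728). TNFRSF10D went the other way, with means of 0.138 FPKM in C13* shCON and 6.33 FPKM in C13* shCEBPB (difference 2.68, limma adjusted p = 7.54e-18). LTBR, the lymphotoxin β receptor, had 3.38 FPKM in A2780 and 65.8 FPKM in A2780 OlaR (difference 3.93, standard error 0.06, limma adjusted p = 1.79e-21). IL20RB, a chain of the receptors for IL-20 and IL-24, had 5.36 and 21.97 FPKM (difference 1.85, standard error 0.05, limma adjusted p = 2.33e-18).

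Of 45 signal transducers listed, 43 were tested in each comparison. In C13* 31 were called, 14 higher and 17 lower in C13* shCEBPB, with a median difference of -0.07, and in A2780 37 were called, of which A2780 OlaR had 17 higher and 20 lower, at a median of -0.06. The shares called, 72.1% and 86.0% of those tested, were below the 84.7% and 89.8% of all genes. MAP3K14 encodes NIK, the kinase of the slower NF-kB branch. It had means of 23.5 FPKM in C13* shCON, 7.16 FPKM in C13* shCEBPB (difference -1.59, standard error 0.06, limma adjusted p = 8.23e-15), 25.9 FPKM in A2780 OlaR and 5.65 FPKM in A2780 (difference 2.02, standard error 0.06, limma adjusted p = 1.40e-17). MAP3K14 was thus high in the groups in which NFKB2 and RELB were low. MYD88, the adaptor of IL-1 and Toll-like receptors, had 0.516 FPKM in A2780 and 19.2 FPKM in A2780 OlaR (difference 3.74, standard error 0.04, limma adjusted p = 5.75e-24). IKBKB (difference 1.34, standard error 0.05, limma adjusted p = 4.43e-14), an IkB kinase subunit, and BCL3 (difference 1.19, standard error 0.10, limma adjusted p = 2.99e-09), an atypical IkB protein, were higher in C13* shCEBPB, and SOCS3 (difference -1.14, standard error 0.08, limma adjusted p = 1.52e-10), an inhibitor of gp130 signalling, was lower. NFKBIB (difference -2.18, standard error 0.09, limma adjusted p = 7.16e-15), which encodes IkBβ, and XIAP (difference -1.89, standard error 0.06, limma adjusted p = 8.76e-17), an inhibitor of caspases, were lower in A2780 OlaR.

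Within groups the libraries numbered 1 to 3 and 4 to 8 also differed for some ligands. In A2780 OlaR the mean IL1A level was 146 FPKM in numbers 1 to 3 and 110.2 FPKM in numbers 4 to 8, with 11.2 and 8.15 FPKM for CXCL8 and 22.8 and 16.5 FPKM for CCL28. In C13* shCEBPB the mean IL32 level was 158 FPKM in numbers 1 to 3 and 208 FPKM in numbers 4 to 8. Within numbers 1 to 3 alone the IL1A difference was -7.53 in C13* and 7.18 in A2780, and within numbers 4 to 8 it was -7.70 and 6.74, so each range alone held the IL1A differences between groups.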

How the data were processed

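The members, lists and tests were chosen with earlier results of these data known. Per the labels and the study's methods, total RNA was extracted with TRIzol, libraries were read paired-end, with mapping by TopHat to hg38 and counting by HTSeq. The values the authors deposited were FPKM, 1 table for all 31 libraries, and their count tables were not used here. The tool and annotation behind the FPKM and the use of strand are not given in the sources used here. Table columns carry codes from the labels (C for A2780 OlaR, O for A2780, CS for C13* shCON, R for C13* shCEBPB), whose letters are not explained. Of 19225 rows, 4 with a repeated symbol were left out.

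Differences of log2(FPKM + 1) were tested with limma 3.58.1 (R 4.3.3, lmFit, eBayes with a trend, two-sided), using the 2 groups compared and no covariate. Genes were tested if the number of libraries with an FPKM of 1 or more was no less than the size of the smaller group, and calls had a Benjamini-Hochberg adjusted p under 0.05. Single genes also had an exact permutation test (scipy 1.17.1). The fit was tested on simulated data, in which it found nearly all changed genes and the share of false calls was above the threshold. Absolute depth is unknown, so no counting error is given. Relative depth came from 19767 values under 0.2 FPKM, of which 90.6% lay within 0.1 of a whole number of reads. Positions are from GENCODE 44, promoter windows from RefSeq. Members with a group mean of at least 10 FPKM are given by library values, those of 1 to 10 by means or ranges. Receptors and transducers were named if a group mean reached 10 FPKM and their difference was among the 5 largest of the list. Alternatives were other pseudocounts, filters, scalings, call rules and variance models, 1 fit of all groups, the replicate number as a block, library number ranges, and C13* shCON without replicate 1.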

Additional observations from a re-analysis of the deposited data

Results flagged for a closer look

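In 77 sets of a member's values within a group (members with a group mean of at least 1 FPKM), 2 had a library whose gap to its nearest neighbour was large against the range of the group by Dixon's criterion, which chance exceeds in about 1 in 20 sets. CXCL2 was at 2.11 FPKM in C13* shCON replicate 6, where the next library was at 2.89 and the highest at 3.41 FPKM (gap over range 0.603, critical value 0.568). RELB was at 14.1 FPKM in A2780 replicate 8, where the next library was at 18.7 and the highest at 21.9 FPKM (gap over range 0.592, critical value 0.526).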

How the results depend on the processing

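Of the members tested, 16 of 24 in C13* and 21 of 24 in A2780 kept their direction and their side of the threshold under every alternative that tested them, against 5 of 23 between A2780 OlaR and C13* shCON and 16 of 20 between C13* shCEBPB and A2780. This was not counted over all genes, and it was partly built in where the filter fixed a member's direction. In the main fit 84.7%, 89.8%, 42.2% and 88.9% of all genes were called in these comparisons. Shares of all genes are not given for the filter at 5 FPKM, the replicate block or the fits without replicate 1. A minimum FPKM of 5 left 17, 18, 15 and 14 members to test in that order. Requiring a fold of at least 2 left 13 of 26 receptors and 8 of 43 signal transducers called in C13*, against 29.5% of all genes. In A2780 it left 10 of 22 receptors and 16 of 43 transducers, against 35.7% of all genes. Between A2780 OlaR and C13* shCON it left 3 of 23 members, against 0.589% of all genes. Requiring an FPKM of at least 5, which tests fewer genes, left 11 receptors called in C13*, 14 in A2780, and 11 members between A2780 OlaR and C13* shCON. Quantile normalization turned the uncalled differences of IL15 (0.20), CXCL2 (0.10) and BIRC3 (0.12) in C13* and of CCL20 (0.0048) between A2780 OlaR and C13* shCON. Between C13* shCEBPB and A2780 it moved the median of all genes from -0.18 to -0.04 and that of the members from -0.15 to 0.37, and without a filter on low values the members' median was 0.0013. Library numbers 1 to 3 alone turned BIRC3 in C13* (0.12) and, between A2780 OlaR and C13* shCON, IL18 (0.10), CXCL16 (-0.024) and CCL20 (0.14). The cause was not tested. With the replicate number as a block, 21 members were called in C13*, 24 in A2780, 16 between A2780 OlaR and C13* shCON and 20 between C13* shCEBPB and A2780. CXCL8 was the call lost with the block, between A2780 OlaR and C13* shCON (limma adjusted p = 0.0562). Libraries of the same replicate number did not deviate together on average (mean correlation of deviations -0.148 over 7 pairs in C13* and -0.233 over 8 pairs in A2780). Single pairs ran from -0.512 to 0.462 in C13* and from -0.589 to 0.125 in A2780. In these pairs 0 libraries correlated best with their own replicate number. C13* shCON replicates 6 and 7 carry library numbers 7 and 8, so these pairs and the block did not follow library numbers there. Library numbers 1 to 3 and 4 to 8 differed within groups for some members. Without C13* shCON replicate 1, 21 members were called in C13* and 17 between A2780 OlaR and C13* shCON. FPKM carry no read totals, so values near 0 cannot be told from absence.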
